A study of Mus musculus with 6 samples.

Results

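Genes for translation factors and aminoacyl-tRNA synthetases were followed in mouse dental mesenchymal cells (mDMCs), fresh and in culture. The genes were chosen by a name pattern: symbols that begin with Eif1 to Eif6 (the eIF2 kinases, *Eif2ak*, left out), symbols that begin with Eef1 or Eef2, and symbols made of 1 letter and ars, with or without a final 2. This rule was met by 89 of the 11386 genes in the deposited tables. They were 48 genes named for initiation factors, 7 named for elongation factors and 34 synthetases, of which 17 work in the cytosol and 17 in mitochondria. All 89 identifiers carried the same symbol in the gene name table.

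The cells came from the lower first molar germs of mouse embryos at embryonic day 14.5, after dispase had freed the mesenchyme from the dental epithelium. The paper names a strain, ICR, only for the adult mice that received its tissue grafts. P1 and P2 are cells of the first and second passage on plastic, in DMEM with fetal bovine serum, and P0 are cells taken directly after isolation. No genotype, transgene or drug separated the groups, and all cells were harvested with trypsin. Sequencing gave 2 libraries for each passage (6 together), and neither the labels nor the methods say whether the duplicates were separate cultures, so the p-values measure the spread between these libraries, which may be technical.

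Translation begins when initiation factors bring the small ribosomal subunit, the initiator tRNA and the capped mRNA together. eIF2 delivers the initiator tRNA and eIF2B recharges it with GTP, eIF3 holds the complex together, and the eIF4 proteins bind the cap and unwind the leader. Elongation factors then move the ribosome along, and each aminoacyl-tRNA synthetase loads 1 kind of amino acid onto its tRNAs. When eIF2 is phosphorylated, for example because an amino acid is short, most initiation slows while the transcription factor ATF4 is made in larger amounts. ATF4 binds C/EBP-ATF response elements (CAREs) near genes for amino acid transport, amino acid synthesis and tRNA charging.

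Since several cytosolic synthetase genes were higher in culture, their promoters were searched for the CARE core, TTGCATCA, and for the looser form TGATGNAA, on both strands. The looser form includes the reverse complement of the core. RefSeq promoters (GRCm38.p6, the same assembly as mm10, 250 bases before to 50 after the annotated start) were matched for 66 of the 89 genes. The stretches below show the match, or the core where there was also a looser match, in each cytosolic synthetase promoter that had one, and in those of *Asns* and *Chac1*, which are ATF4 target genes described further on. Each is 58 bases long and reads 5′ to 3′ on the strand of the gene, with the match in capitals.
Aars, chr8:111033690-111033747, + strand: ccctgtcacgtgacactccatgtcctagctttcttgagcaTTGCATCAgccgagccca
Gars, chr6:55037931-55037988, + strand: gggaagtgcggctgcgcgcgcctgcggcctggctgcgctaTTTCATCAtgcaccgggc
Iars, chr13:49682097-49682154, + strand: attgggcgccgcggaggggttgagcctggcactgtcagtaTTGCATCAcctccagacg
Tars, chr15:11399656-11399713, - strand: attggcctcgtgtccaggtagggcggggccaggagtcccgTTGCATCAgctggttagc
Yars, chr4:129189866-129189923, + strand: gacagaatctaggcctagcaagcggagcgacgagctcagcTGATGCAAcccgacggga
Asns, chr6:7693215-7693272, - strand: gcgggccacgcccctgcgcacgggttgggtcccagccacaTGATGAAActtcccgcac
Chac1, chr2:119351009-119351066, + strand: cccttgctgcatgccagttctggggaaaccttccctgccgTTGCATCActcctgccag

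The core was present in the promoters of *Aars*, *Iars*, *Tars* and *Yars*, and the looser form alone in that of *Gars*. In *Gars* and *Tars* the match lay 30 and 15 bases before the RefSeq start, which is also the deposited start of both genes. In *Aars* it lay 112 bases before the RefSeq start, and that start is 698 bases from the start in the deposited tables. A second match of *Aars*, to the looser form, lay after its RefSeq start and is not shown. In *Iars* and *Yars* the match began 7 and 3 bases after the RefSeq start, which is 30 and 143 bases from the deposited start. The core was held by 4 and either form by 5 of the 9 cytosolic synthetase promoters that were matched, against 0 of 14 mitochondrial synthetase promoters under both forms. Over all 32851 promoters of the same length, 0.895% held the core and 3.97% the looser form. Among the matched promoters of the other translation genes only that of *Eif2s3x*, for the gamma subunit of eIF2, held the looser form, and none held the core. Of the genes called below, *Cars*, *Lars*, *Nars*, *Pars2*, *Eif4ebp1* and *Eif4g2* had no matched promoter, so whether theirs hold a motif is not known. Of the cytosolic synthetases called higher below, 5 had a promoter in the table, 3 of them with the core and 4 with either form. Of those not called, 4 had a promoter, and 1 held a match, the core of *Yars*. The E-box CACGTG, searched as a second motif, was present in 15 of the 66 promoters and in 7.15% of all. A match is a description of the letters in this window, not a shown binding site.

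Expression is given in scaled units, in which the authors' normalized values add up to 1000000 in every passage. A value of 1 equals 18.72 on the deposited scale. The sequencing depth behind the values is unknown, and the values were not divided by transcript length, so levels of different genes are not compared. Both library values of each gene follow from the deposited mean and error, but not which of them is replicate 1. Changes are given as log2 fold changes on the log2(scaled units + 1) scale, which understates the change of low genes. They are given with their standard error (SE) and limma's p-value, Benjamini-Hochberg adjusted over all 11386 genes. A gene was called when that p was under 0.05 and the change at least 2-fold, and a second count takes adjusted p under 0.05 at any size. The comparisons of P1 and of P2 with P0 use the same P0 libraries.

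For the 89 genes as a whole the share of calls was near or below that of all genes, a difference that was not tested. In P1 against P0, 9 were called higher and 1 lower, where 12.2% and 12% of all genes were called. At any size 24 were higher and 17 lower, against 29.6% and 29.1% of all genes. In P2 against P0, 9 were called higher and 2 lower, against 14% and 14.4% of all genes, and at any size 25 were higher and 20 lower, against 31.6% and 32.1%. The median log2 fold change of the 89 genes was 0.11 in P1 and 0.06 in P2 against P0, and that of all genes was 0.02 and 0.01. Between P2 and P1 limma called none of the 89 under either rule. Of all genes, 0.0878% were called higher and 0.211% lower in that comparison, and 0.167% and 0.905% at any size. At an unadjusted p under 0.05 the P2 against P1 comparison had 7 of the 89 higher and 3 lower, where 5.96% and 8.35% of all genes were higher and lower.

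The 12 genes called in at least 1 comparison, 13.5% of the 89 where 30.1% of all genes were, came from 3 groups. They were 8 cytosolic synthetases (*Aars*, *Cars*, *Gars*, *Iars*, *Lars*, *Nars*, *Sars* and *Tars*), the mitochondrial synthetase *Pars2*, and *Eif4ebp1*, *Eif4a1* and *Eif4g2* of the eIF4 group. No gene of the groups for scanning, eIF2 and eIF2B, eIF3, eIF5A or elongation was called in any comparison.

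**Figure D1:**
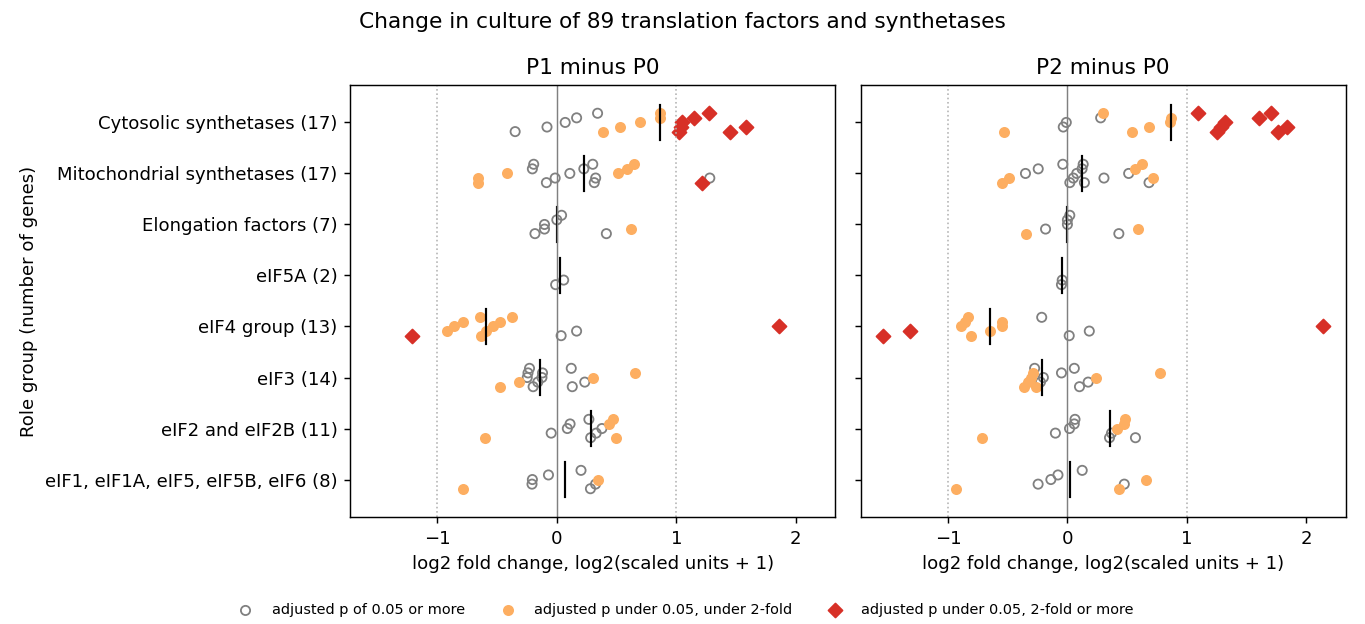
Log2 fold change of each of the 89 genes in P1 minus P0 (left panel) and P2 minus P0 (right panel), by role group, with 1 point per gene, a black bar at the group median and dotted lines at 2-fold. The red diamonds, called at 2-fold, lie mostly among the cytosolic synthetases, whose medians were 0.86 in P1 and 0.87 in P2, while the eIF4 group has medians of -0.60 and -0.65.

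Markers of other cell types also differed between the passages. The summed level of 8 red cell markers was 12096 scaled units in P0, 2.32 in P1 and 4.75 in P2, that of 10 endothelial markers 479, 13.8 and 8.04 (3 markers at 0 in P1 and 4 in P2), and that of 4 dental epithelium markers 69.6, 1.74 and 1.55 (1 at 0 in P2). The 4 macrophage markers measured summed to 55.5, 15.5 and 50.1, and the sum in P2 was mostly *Lyz2*, which was called higher there (2.05 ± 0.34), while *Csf1r* (-3.17 and -2.22) and *Irf8* (-3.43 and -3.33) were called lower in P1 and P2 and *Ptprc* passed lower below 2-fold. The 4 markers of Schwann cells and neurons summed to 138, 83.4 and 67.8. Of these *Ngfr* (-6.12 and -6.18) and *Nefl* (-2.91 and -3.81) were called lower in P1 and P2, and *Tubb3* (2.29 and 1.86) and *Stmn2* (2.61 and 2.66) higher. The 10 markers of dental mesenchyme were all present in each passage, with sums of 3335, 2194 and 1869. *Pax9*, *Lhx6*, *Dlx2*, *Twist1* and *Pdgfra* among them were called lower in both cultured passages. The part of these differences in the results below was not tested. In such bulk samples fewer cells of a type and less RNA per cell cannot be told apart.

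The cytosolic synthetases were the group with the most calls. In P1 7 of the 17 were called higher than in P0 and none lower, and at any size 12 were higher and none lower. In P2 8 were called higher than in P0, and at any size 13 were higher and 1, *Kars*, was lower. These shares, 41.2% and 47.1% called higher, stand beside the 12.2% and 14% of all genes. Called lower were 12% and 14.4% of all genes. At any size 29.6% and 29.1% of all genes were higher and lower in P1, and 31.6% and 32.1% in P2. With a pseudocount of 10 scaled units 4 were called higher in P1, and *Iars*, *Sars* and *Tars* lost the call at 0.97, 0.99 and 0.99.

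*Gars* charges tRNA with glycine (chr6:55038001-55079504). It had 390 and 555 scaled units in P1 and 540 and 568 in P2, against 150 and 159 in P0. This gave a log2 fold change of 1.59 ± 0.17 (SE) in P1 (adjusted p = 0.000628 in limma) and 1.84 ± 0.17 in P2 (adjusted p = 0.000275). Its P0 values lay well below those of culture, and the 2 P1 values were further apart than those of the other passages.

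*Cars*, for cysteine (chr7:143557230-143600090), had 110 and 138 scaled units in P1 and 149 and 157 in P2, against 42.6 and 46.4 in P0. The log2 fold change was 1.45 ± 0.13 in P1 (limma adjusted p = 0.000359) and 1.76 ± 0.13 in P2 (adjusted p = 0.000132). *Lars*, for leucine, had 306 and 388 scaled units in P1 and 456 and 566 in P2, against 153 and 157 in P0, with a log2 fold change of 1.15 ± 0.15 in P1 (limma adjusted p = 0.00142) and 1.71 ± 0.15 in P2 (adjusted p = 0.000253). The P2 values of *Lars* were above both P1 values, although the difference between P2 and P1, 0.56 ± 0.15, missed the threshold (adjusted p = 0.175).

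*Nars*, for asparagine, had 431 and 472 scaled units in P1 and 555 and 584 in P2, against 182 and 191 in P0, with log2 fold changes of 1.27 ± 0.09 and 1.61 ± 0.09. *Sars*, for serine, had 367 and 374 scaled units in P1 and 441 and 469 in P2, against 177 and 187 in P0, with log2 fold changes of 1.02 ± 0.08 and 1.32 ± 0.08. In both genes the passages did not overlap in any of the 3 comparisons. *Sars* lay just above 2-fold in P1, and with median-ratio scaling of the passages its value was 0.996, below it.

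*Tars*, for threonine, had 232 and 261 scaled units in P1 and 288 and 296 in P2, against 117 and 121 in P0 (log2 fold changes 1.04 ± 0.09 and 1.29 ± 0.09). *Iars*, for isoleucine, had 166 and 174 in P1 and 186 and 208 in P2, against 79.0 and 85.3 in P0 (1.04 ± 0.10 and 1.25 ± 0.10). *Aars*, for alanine, had 388 and 469 in P1 and 481 and 523 in P2, against 230 and 238 in P0. Its log2 fold change was 0.86 ± 0.11 in P1, short of 2-fold with an adjusted p of 0.00145 in limma, and 1.096 ± 0.11 in P2. *Tars*, *Iars* and *Aars* are 3 of the genes whose promoter stretches with the CARE core are shown above.

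Further synthetases passed below 2-fold. *Mars*, for methionine, had log2 fold changes of 0.86 ± 0.10 and 0.87 ± 0.10, *Rars*, for arginine, 0.70 ± 0.13 and 0.86 ± 0.13, and *Yars*, for tyrosine, 0.53 ± 0.08 and 0.69 ± 0.08. *Hars*, for histidine, passed in P1 (0.39 ± 0.11, limma adjusted p = 0.0232) and not in P2 (0.28 ± 0.11, adjusted p = 0.0624). *Vars*, for valine, and *Wars*, for tryptophan, passed in P2, with 0.54 ± 0.15 and 0.30 ± 0.10, and not in P1, with 0.34 ± 0.15 and 0.07 ± 0.10.

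*Dars* and *Qars*, for aspartate and glutamine, passed in no comparison. *Qars* had 133 and 137 scaled units in P1 and 139 in both P2 libraries, against 138 and 148 in P0, and *Dars* had log2 fold changes of 0.17 ± 0.12 and -0.01 ± 0.12. *Kars*, for lysine, went the other way: it had 161 and 204 scaled units in P1 and 154 and 165 in P2, against 228 and 234 in P0. The change was -0.35 ± 0.13 in P1 (limma adjusted p = 0.0569) and -0.53 ± 0.13 in P2 (adjusted p = 0.0119). Between P2 and P1, 14 of the 17 cytosolic synthetases had a positive and 3 a negative log2 fold change, with a median of 0.21, where 5797 of all 11386 genes had a positive one.

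**Figure D2:**
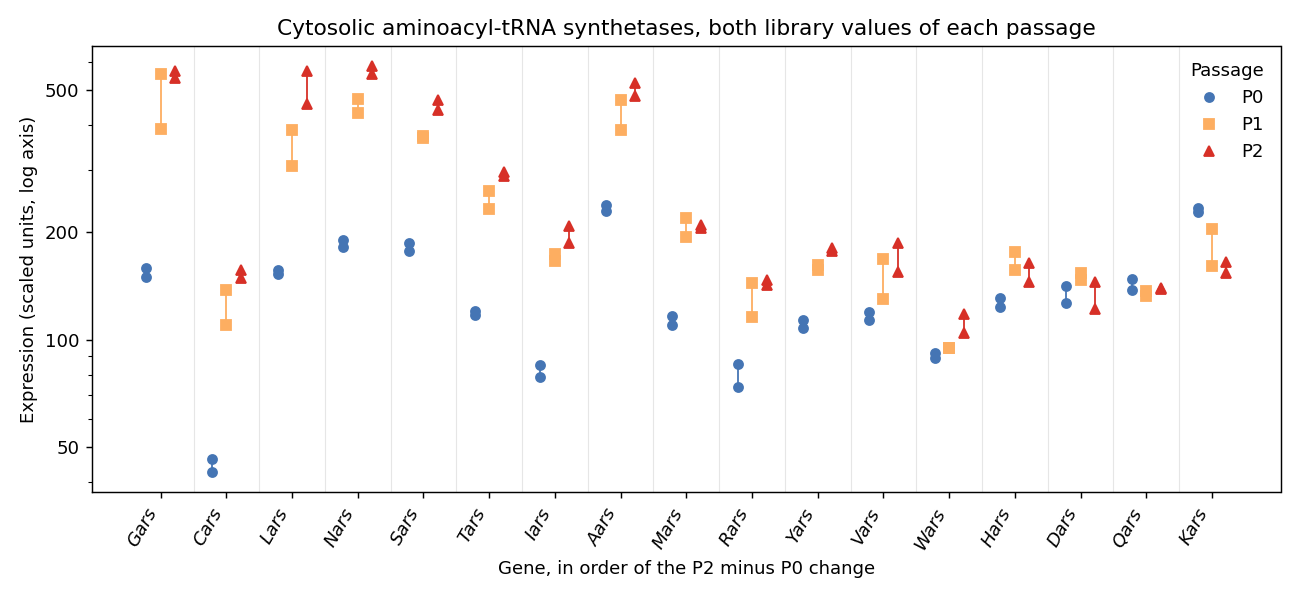
Expression of the 17 cytosolic synthetases in scaled units on a log axis, with both library values of P0 (circles), P1 (squares) and P2 (triangles), joined by a line. From *Gars* to *Yars* all P1 and P2 values lie above both P0 values, and at the right end those of *Kars* lie below, with 154 and 165 scaled units in P2 and 228 and 234 in P0.

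A further list held cytosolic synthetases and partners that the name rule leaves out. *Eprs*, the joined synthetase for glutamate and proline, had log2 fold changes of 0.91 ± 0.11 in P1 and 0.96 ± 0.11 in P2 and passed at any size (limma adjusted p = 0.000954 and 0.000594). *Farsa* and *Farsb*, the subunits for phenylalanine, had -0.05 ± 0.15 and 0.23 ± 0.13 in P1 and passed in no comparison, and neither did *Aimp1* and *Aimp2*, scaffolds of the multi-synthetase complex. Of the 9 genes of this list, 4 passed higher and 1 lower at any size in each cultured passage, where 29.6% and 29.1% of all genes passed in P1 and 31.6% and 32.1% in P2. *Sepsecs*, which finishes selenocysteine on its tRNA, was called higher in P2 (1.02 ± 0.13), and *Aarsd1*, an editing protein that clears wrongly charged alanine tRNA, was called lower there (-1.13 ± 0.15).

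Mitochondrial synthetases load the tRNAs of the mitochondrial genome and are mostly made from separate nuclear genes with the suffix 2. The genes *Gars* and *Kars* each encode both the cytosolic and the mitochondrial enzyme, and were counted with the cytosolic synthetases. In P1 1 of the 17 was called higher and none lower, against 12.2% and 12% of all genes. In P2 none was called in either direction, against 14% and 14.4% of all genes. At any size limma had 4 higher and 3 lower in P1, against 29.6% and 29.1% of all genes, and 3 higher and 2 lower in P2, against 31.6% and 32.1%. At an unadjusted p under 0.05 the P2 against P0 comparison had 3 higher and 2 lower, against 33.8% and 33.9% of all genes. Their median log2 fold change was 0.23 in P1 and 0.12 in P2. Leaving out 1 value of every gene in a passage left 1 to 4 higher at any size in P1 and 1 to 5 in P2.

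*Pars2*, for proline, was the mitochondrial gene called. It had 7.53 and 9.08 scaled units in P1 and 3.31 and 6.52 in P2, against 2.88 and 3.10 in P0. Its log2 fold change was 1.22 ± 0.28 in P1 (limma adjusted p = 0.0117) and 0.51 ± 0.28 in P2 (adjusted p = 0.157). With a pseudocount of 10 scaled units the P1 value was 0.49 and the call was lost.

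*Iars2*, *Mars2* and *Rars2* passed at any size in both cultured passages, with log2 fold changes of 0.59 ± 0.10, 0.51 ± 0.13 and 0.64 ± 0.17 in P1 and 0.72 ± 0.10, 0.56 ± 0.13 and 0.62 ± 0.17 in P2. *Hars2* and *Wars2* passed in the opposite direction, both at -0.66 in P1 and at -0.54 and -0.49 in P2, and *Vars2* did so in P1 (-0.42 ± 0.13). *Hars2* had 31.9 and 35.0 scaled units in P1 and 35.6 and 37.1 in P2, against 52.1 and 54.9 in P0. The deposited ranges of *Hars* and *Hars2*, neighbours on chromosome 18, overlap at their ends, so reads there may be assigned uncertainly.

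*Lars2*, for mitochondrial leucine, varied widely between duplicates. It had 1687 and 1946 scaled units in P1 and 736 and 1947 in P2, against 526 and 1055 in P0, and passed in no comparison (1.28 ± 0.50 in P1, limma adjusted p = 0.07). *Aars2*, *Cars2*, *Ears2*, *Fars2*, *Nars2*, *Sars2*, *Tars2* and *Yars2* did not pass in any comparison, with log2 fold changes from -0.35 to 0.33 against P0.

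For 13 amino acids the cytosolic and the mitochondrial synthetase were compared with each other. The log2 fold change of the cytosolic gene was above that of its mitochondrial counterpart for 12 of 13 amino acids in P1 against P0, for all 13 in P2 against P0 and for 11 in P2 against P1. The difference was 1.36 for asparagine in P1 and 1.56 in P2, and 1.13 and 1.64 for cysteine. Leucine was the exception in P1 (-0.13).

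**Figure D3:**
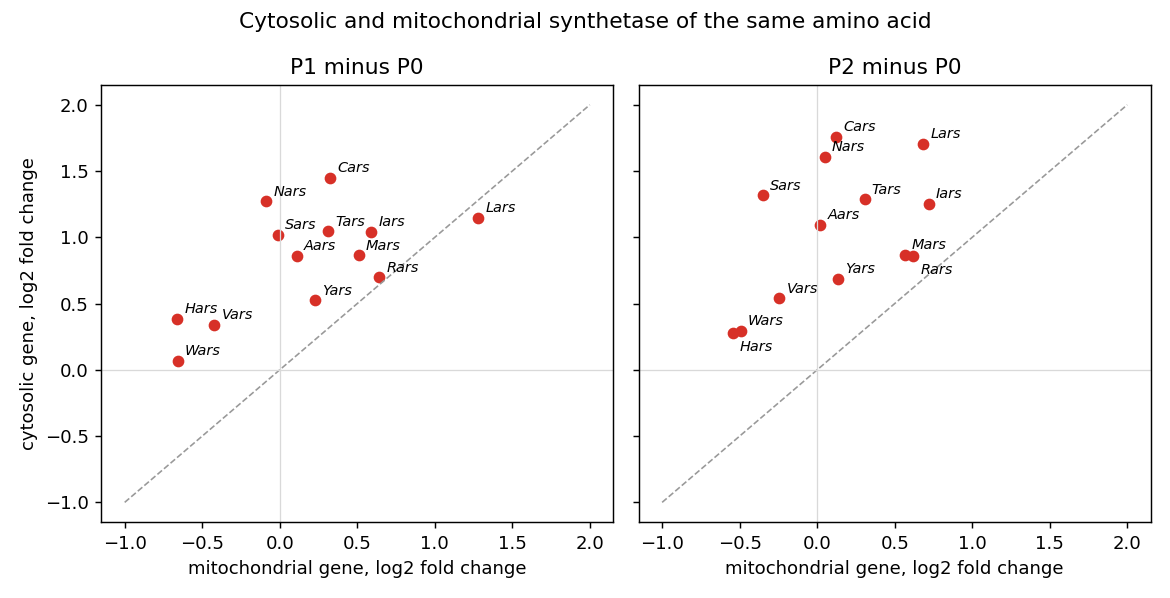
Log2 fold change of the cytosolic synthetase (vertical) against that of the mitochondrial synthetase for the same amino acid (horizontal), 13 pairs labelled by the cytosolic gene, in P1 minus P0 (left) and P2 minus P0 (right). Points above the dashed line of equal change are pairs in which the cytosolic gene changed more, 12 of 13 pairs in P1 and all 13 in P2.

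None of the 13 measured mitochondrial translation factors was called by limma against P0. Of all genes, 12.2% and 12% were called higher and lower in P1, and 14% and 14.4% in P2. At any size, and also at an unadjusted p under 0.05, 5 of the 13 were higher and 1 lower in each cultured passage. At any size 29.6% and 29.1% of all genes passed higher and lower in P1, and 31.6% and 32.1% in P2. *Mtif3*, an initiation factor, had log2 fold changes of 0.91 ± 0.13 and 0.96 ± 0.13, *Mtfmt*, which formylates the initiator tRNA, 0.92 ± 0.12 and 0.75 ± 0.12, and *Guf1*, a GTPase on the mitochondrial ribosome, -0.51 ± 0.09 and -0.54 ± 0.09.

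The eIF4 group moved mostly downward, and below 2-fold. In P1 10 of the 13 genes passed lower and 1 higher at any size, against 29.1% and 29.6% of all genes. In P2 9 passed lower and 1 higher, against 32.1% and 31.6%. When the higher P0 value of every gene was left out, 5 passed lower in P1. At 2-fold 1 gene was called lower and 1 higher in P1, against 12% and 12.2% of all genes. In P2 2 were called lower and 1 higher, against 14.4% and 14%.

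*Eif4ebp1*, which encodes the repressor 4E-BP1 that holds the cap-binding protein eIF4E, was the exception. It had 111 and 123 scaled units in P1 and 139 and 147 in P2, against 29.9 and 33.3 in P0. The log2 fold change was 1.86 ± 0.10 in P1 (limma adjusted p = 8.27e-05) and 2.14 ± 0.10 in P2 (adjusted p = 3.86e-05), the largest rise of the 89 genes in both comparisons. The P2 values lay above both P1 values, with a difference of 0.28 ± 0.10 that missed the threshold (adjusted p = 0.301).

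*Eif4e*, whose product 4E-BP1 holds, had 167 and 209 scaled units in P1 and 152 and 153 in P2, against 269 and 297 in P0. The log2 fold changes were -0.60 ± 0.13 in P1 and -0.89 ± 0.13 in P2 (limma adjusted p = 0.0089 and 0.00154). Its relative *Eif4e3* passed lower as well (-0.79 ± 0.15 and -0.83 ± 0.15), while *Eif4e2*, for the cap-binding protein 4EHP, did not pass (0.17 ± 0.08 and 0.18 ± 0.08). *Eif4enif1*, for the protein that carries eIF4E into the nucleus, had -0.47 ± 0.11 and -0.55 ± 0.11 and passed lower in both.

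Among the scaffold genes, *Eif4g1*, for the main scaffold eIF4GI, had 611 and 675 scaled units in P1 and 594 and 675 in P2, against 581 and 675 in P0, and did not pass. *Eif4g2*, for DAP5, which lacks the eIF4E-binding part, had 1682 and 1941 in P1 and 1173 in both P2 libraries, against 3427 in both P0 libraries. Its log2 fold change was -0.92 ± 0.10 in P1 (limma adjusted p = 0.000607) and -1.55 ± 0.10 in P2 (adjusted p = 8.02e-05), and P2 against P1 gave -0.62 ± 0.10 (adjusted p = 0.0538). Because its P0 and its P2 values are equal, these SEs and p-values may be too small, as described below. *Eif4g3* passed lower in P1 (-0.53 ± 0.12) and not in P2 (-0.21 ± 0.12).

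Among the helicase genes, *Eif4a1* had 1942 and 2341 scaled units in P1 and 1684 and 2342 in P2, against 3428 and 7148 in P0. The log2 fold change was -1.21 ± 0.35 in P1 (limma adjusted p = 0.0262) and -1.32 ± 0.35 in P2 (adjusted p = 0.0177). The higher P0 value decided the calls: without it the values were -0.68 and -0.79 and no call remained. *Eif4a2* had 1507 in both P1 libraries and 1330 and 1683 in P2, against 2340 in both P0 libraries (-0.64 ± 0.12 and -0.65 ± 0.12), and *Eif4a3*, for the helicase of the exon junction complex, had -0.65 ± 0.08 and -0.85 ± 0.08. *Eif4a1* and *Eif4a2* are close in sequence, so reads between them may have been shared out uncertainly. The helicase partners *Eif4b* and *Eif4h* also passed lower, at -0.86 ± 0.11 and -0.37 ± 0.08 in P1 and -0.81 ± 0.11 and -0.54 ± 0.08 in P2.

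For the most abundant genes the authors' normalization left few possible values. The highest value, 133818 on the deposited scale, occurred 20 times over the 2 libraries of each passage, with 8 genes at it in both. Values below it are also spaced. For 10 of the 89 genes a neighbouring step was at least 0.1 on the log2 scale: *Eef1a1*, *Eef1b2*, *Eef1g*, *Eef2*, *Eif3a*, *Eif4a1*, *Eif4a2*, *Eif4b*, *Eif4g2* and *Lars2*. The widest step, 1.06, touched *Eef1a1*, *Eif4a1* and *Eif4g2*, and the higher P0 value of *Eif4a1* was the highest value itself. Equal duplicates of these genes, such as both P0 values of *Eif4g2*, show the same step and not a measured spread of 0. Equal duplicates also occurred outside these 10 genes, as in *Eif2s2* and *Eif3e* in P1, *Eif4h* in P0 and P2 and *Eif1a* in P0. They too may not be a measured spread of 0. Where duplicates are equal, the SE and the p-value of the gene may be too small.

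**Figure D4:**
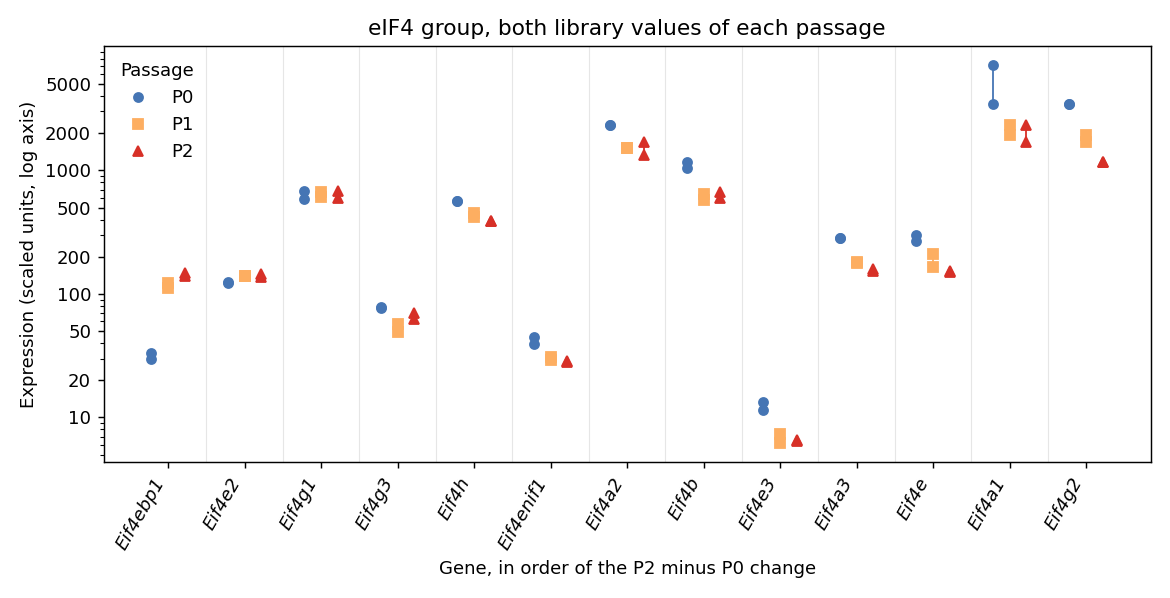
Expression of the 13 genes of the eIF4 group in scaled units on a log axis, with both library values of P0 (circles), P1 (squares) and P2 (triangles), joined by a line. *Eif4ebp1* at the left is higher in culture, with 139 and 147 scaled units in P2 and 29.9 and 33.3 in P0, and from *Eif4g3* rightward the cultured values lie below both P0 values.

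Among scanning and start codon factors, close relatives differed in whether they passed. *Eif1b* had 30.7 and 31.0 scaled units in P1 and 27.4 and 28.0 in P2, against 52.9 and 54.8 in P0 (-0.79 ± 0.09 and -0.94 ± 0.09, limma adjusted p = 0.000908 and 0.000355), while *Eif1*, for the main start codon gatekeeper, did not pass (-0.20 ± 0.10 and -0.08 ± 0.10). *Eif1a* passed higher (0.35 ± 0.12 and 0.66 ± 0.12), and its X-linked copy *Eif1ax* did not pass (-0.21 ± 0.09 and -0.25 ± 0.09). *Eif1a* and *Eif1ax* are nearly identical, so their separate values are uncertain. *Eif5*, for the factor that makes eIF2 hydrolyse GTP, passed higher in P2 (0.43 ± 0.10). *Eif1ad*, *Eif5b* and *Eif6* passed in neither comparison with P0, and neither did *Eif5a* and *Eif5a2*, which help ribosomes over difficult peptide bonds and lay within 0.06 of no change.

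None of the 11 genes of eIF2 and eIF2B was called. Of all genes, 12.2% and 12% were called higher and lower in P1, and 14% and 14.4% in P2. At any size 3 of the 11 were higher and 1 lower in each cultured passage. Of all genes, 29.6% and 29.1% passed higher and lower at any size in P1, and 31.6% and 32.1% in P2. The 3 eIF2 subunits differed. *Eif2s2*, for the beta subunit, had 297 scaled units in both P1 libraries and 297 and 314 in P2, against 214 and 224 in P0 (0.44 ± 0.08 and 0.48 ± 0.08). *Eif2s1*, for the alpha subunit that the stress kinases phosphorylate, passed in P1 (0.49 ± 0.17, limma adjusted p = 0.0473) and not in P2 (0.37 ± 0.17, adjusted p = 0.104). *Eif2s3x*, for the gamma subunit, had 310.5 and 314 in P1 and 263 and 319 in P2, against 420 and 538 in P0 (-0.60 ± 0.15 and -0.71 ± 0.15). Its Y-linked copy *Eif2s3y* did not pass (0.38 ± 0.29 and 0.35 ± 0.29), and reads of these near-identical genes may be divided uncertainly. *Eif2d*, a separate tRNA-binding factor, passed higher in both (0.47 ± 0.10 and 0.42 ± 0.10). Of the 5 eIF2B subunits *Eif2b2* passed higher in P2 (0.47 ± 0.10), and *Eif2b1*, *Eif2b3*, *Eif2b4* and *Eif2b5*, like *Eif2a*, passed in neither.

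The eIF3 subunits had log2 fold changes from -0.48 to 0.65 in P1 and from -0.36 to 0.77 in P2, and none of the 14 was called. Of all genes, 12.2% and 12% were called higher and lower in P1, and 14% and 14.4% in P2. At any size 2 of the 14 were higher and 2 lower in P1, against 29.6% and 29.1% of all genes. In P2 2 were higher and 5 lower, against 31.6% and 32.1%. *Eif3c*, a core subunit, had 467 and 521 scaled units in P1 and 521 and 551 in P2, against 309 and 317 in P0 (0.65 ± 0.09 and 0.77 ± 0.09), the largest rise of the group. *Eif3a*, the largest subunit, passed higher as well (0.30 ± 0.08 and 0.24 ± 0.08). *Eif3e* had 332 scaled units in both P1 libraries and 349 and 412 in P2, against 457 and 470 in P0 (-0.48 ± 0.10 and -0.29 ± 0.10), and *Eif3k* passed lower in both too. *Eif3f*, *Eif3i* and *Eif3m* passed lower in P2, at -0.26, -0.36 and -0.33, and not in P1, at -0.25, -0.24 and -0.23. *Eif3b*, *Eif3d*, *Eif3g*, *Eif3h* and *Eif3l* passed in neither, and neither did *Eif3j1* and *Eif3j2*, near-identical copies whose reads may be divided uncertainly.

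Among the elongation genes only *Eef2k* passed in both cultured passages. It encodes the kinase that switches off the translocation factor eEF2, and had 85.4 and 91.3 scaled units in P1 and 86.1 and 86.9 in P2, against 55.8 and 58.4 in P0 (0.62 ± 0.09 and 0.59 ± 0.09, limma adjusted p = 0.00189 and 0.0018). *Eef1d*, for an exchange factor of eEF1A, passed lower in P2 (-0.34 ± 0.11). *Eef1b2*, *Eef1g* and *Eef2* did not pass. *Eef1e1*, which encodes AIMP3 of the multi-synthetase complex in spite of its name, did not pass either (0.41 ± 0.23 and 0.43 ± 0.23). *Eef1a1*, which brings charged tRNAs to the ribosome, stood at the highest possible value in all 6 libraries, so these data cannot show a change of it.

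Genes that control these factors were counted from lists. The 10 genes of eIF2 kinases and phosphatase subunits gave 1 call higher and 1 lower in P1, and 1 higher in P2. Of all genes, 12.2% and 12% were called higher and lower in P1, and 14% and 14.4% in P2. *Impact*, whose product binds GCN1 and restrains the kinase GCN2, had 202 and 222 scaled units in P1 and 250 and 293 in P2, against 76.8 and 80.4 in P0 (1.42 ± 0.11 and 1.77 ± 0.11). The kinase genes *Eif2ak1* (0.44 ± 0.10 and 0.61 ± 0.10), for HRI, passed in both, *Eif2ak2* for PKR in P2 (0.95 ± 0.20), and *Eif2ak3* for PERK and *Eif2ak4* for GCN2 in neither. *Ppp1r15a*, for the phosphatase subunit GADD34 and itself known as an ATF4-dependent gene, was called lower in P1 (-1.21 ± 0.40), and its 2 values in P2, 55.2 and 140 scaled units, were far apart (P0 146 and 164). *Ppp1r15b* passed lower in both (-0.66 ± 0.08 and -0.59 ± 0.08).

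Most of the 26 genes listed as ATF4 and its known targets were higher in culture. In P1 14 were called higher and 2 lower than in P0, against 12.2% and 12% of all genes, and in P2 18 higher and 1 lower, against 14% and 14.4% of all genes. The list's median log2 fold changes were 1.39 and 1.65. *Atf4* itself had 360 and 419 scaled units in P1 and 428 and 440 in P2, against 242 and 245 in P0 (0.67 ± 0.10 and 0.83 ± 0.10, limma adjusted p = 0.00204 and 0.0007). The list was written with results of these data known, and holds no member of the 89 genes.

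*Nupr1*, a stress-induced chromatin protein, had 38.7 and 67.9 scaled units in P1 and 90.1 and 124 in P2, against 0.214 and 0.641 in P0, with log2 fold changes of 5.21 ± 0.31 and 6.24 ± 0.31. *Trib3*, a pseudokinase that restrains ATF4, had 25.3 and 48.3 in P1 and 53.4 and 76.4 in P2, against 0.107 in both P0 libraries (5.02 ± 0.32 and 5.87 ± 0.32). *Chac1*, which breaks down glutathione, had 36.4 and 61.1 in P1 and 60.5 and 78.8 in P2, against 0.855 and 0.962 in P0 (4.66 ± 0.26 and 5.20 ± 0.26). These 3 genes were barely measured in fresh cells, so their fold changes depend on the pseudocount of 1.

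*Asns*, asparagine synthetase of amino acid metabolism and not of tRNA charging, had 176 and 259 scaled units in P1 and 275 and 284 in P2, against 41.9 and 43.9 in P0 (2.29 ± 0.18 and 2.68 ± 0.18). *Slc7a3*, a cationic amino acid transporter, had 13.2 and 20.4 in P1 and 31.3 and 32.5 in P2, against 0.855 and 1.07 in P0 (3.16 ± 0.21 and 4.07 ± 0.21, which depend on the pseudocount as well). The transcription factor *Atf5* had log2 fold changes of 3.01 ± 0.18 and 3.42 ± 0.18. The serine synthesis genes *Psat1* and *Psph* were also called higher in both.

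Exceptions within the list were *Atf3*, *Vegfa* and *Slc38a2*, which passed lower, and *Vldlr* (-0.09 ± 0.29 and 0.57 ± 0.29) and *Ddit4* (0.45 ± 0.20 and 0.54 ± 0.20), which passed in neither comparison with P0. *Atf3*, a stress-induced repressor, had 7.16 and 24.8 scaled units in P1 and 11.3 and 43.1 in P2, against 125 and 136 in P0 (-3.18 ± 0.72 and -2.50 ± 0.72). *Vegfa*, a vascular growth factor, was called lower in P1 (-1.02 ± 0.16) and passed lower at any size in P2 (-0.46 ± 0.16). *Slc38a2*, the neutral amino acid transporter SNAT2, passed lower in both (-0.62 ± 0.14 and -0.55 ± 0.14). When 1 value of every gene in a passage was left out, 0 to 2 genes of the list were called lower in P1 and 0 to 1 in P2. Between P2 and P1 none of the 26 genes was called by limma, all 26 had a positive log2 fold change with a median of 0.37, and 9 had an unadjusted p under 0.05, all higher. Of all 11386 genes, 5797 had a positive log2 fold change in that comparison, and 5.96% were higher at an unadjusted p under 0.05.

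**Figure D5:**
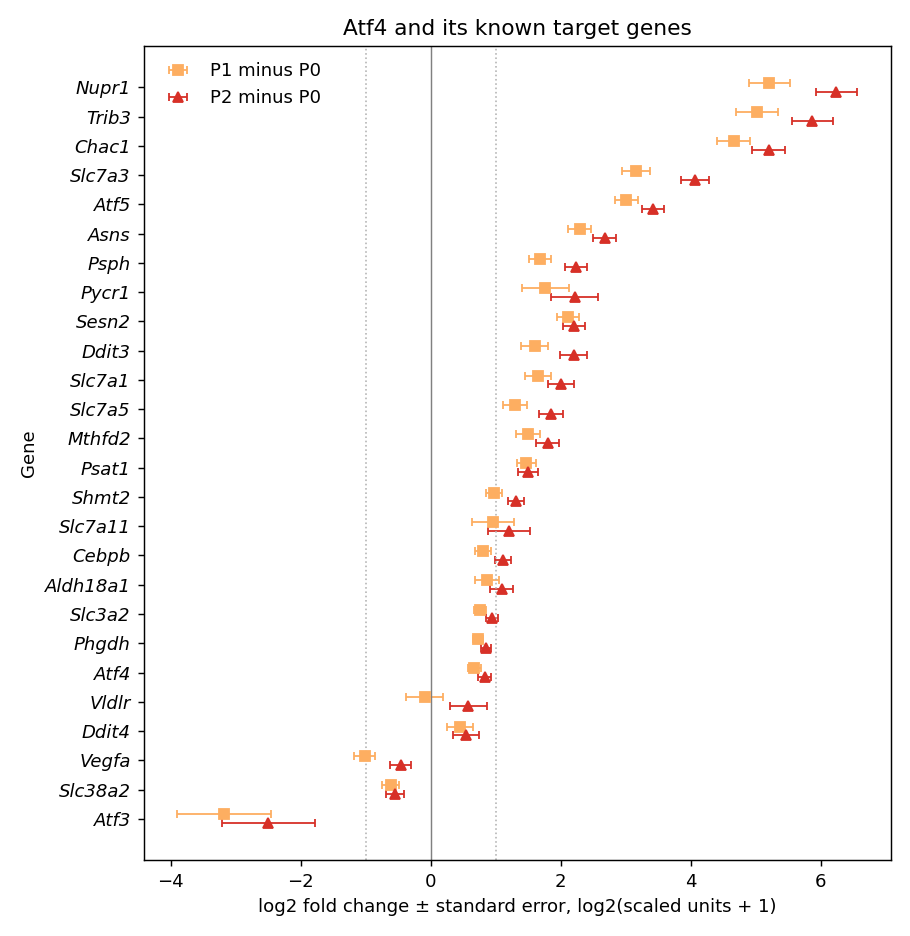
Log2 fold change with its standard error for *Atf4* and 25 of its known target genes in P1 minus P0 (squares) and P2 minus P0 (triangles), ordered by the P2 value, with dotted lines at 2-fold. *Nupr1*, *Trib3* and *Chac1* lie at the top, at 6.24, 5.87 and 5.20 in P2, and *Atf3* at the bottom at -2.50.

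Of the promoters of this list 24 were in the table, of which 5 held the CARE core and 7 either form. The core was in *Chac1* (shown above), *Nupr1*, *Pycr1* and *Slc7a11*, which were higher in culture, and in *Atf3*, which was called lower in both. The looser form alone was in *Asns* (shown above) and *Trib3*, both called higher. The RefSeq start of *Asns* lay 338 bases from the deposited start. Those of *Psph* and *Slc3a2*, which had no match, lay 15638 and 9472 bases away.

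Genes of mTORC1 and of cap-binding control formed another list. Of 16 measured genes of that list none was called higher and 1 lower in P1, and 1 was called in each direction in P2. These counts stand beside 12.2% and 12% of all genes called higher and lower in P1, and 14% and 14.4% in P2. *Pdcd4*, an inhibitor of the helicase eIF4A, had 9.72 and 18.4 scaled units in P1 and 11.1 and 14.3 in P2, against 37.9 and 46.2 in P0 (-1.57 ± 0.29 and -1.66 ± 0.29). *Mknk1*, for a kinase of eIF4E, was called higher in P2 (1.26 ± 0.11), and *Mknk2*, for its sister kinase, passed lower in both (-0.74 ± 0.16 and -0.92 ± 0.16). *Mtor*, *Rptor*, *Tsc1* and *Tsc2* did not pass.

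Of the 14 genes for termination, recycling and poly(A) binding, *Paip2*, which keeps poly(A)-binding protein off mRNA, was called lower in both (-1.13 ± 0.17 and -1.06 ± 0.17), and its relative *Paip2b* passed lower (-0.85 ± 0.11 in each). None of the 14 was called higher. Of all genes, 12.2% and 12% were called higher and lower in P1, and 14% and 14.4% in P2. *Pabpn1* also passed lower in both (-0.70 ± 0.10 and -0.74 ± 0.10). *Pabpc4* (0.48 ± 0.08 and 0.50 ± 0.08) and *Pelo* (0.56 ± 0.13 and 0.57 ± 0.13) passed higher in both. *Etf1* and *Gspt1*, for the release factors, and *Pabpc1* did not pass. Around eIF5A, which needs the polyamine spermidine for its hypusine, *Sat1*, which acetylates polyamines, was called higher (1.23 ± 0.29 and 1.83 ± 0.29) and *Sms*, spermine synthase, lower (-1.06 ± 0.13 and -1.32 ± 0.13), while the hypusine enzyme *Dohh* passed higher below 2-fold (0.49 ± 0.14 in each). Of 10 genes for the diphthamide of eEF2 and for selenocysteine none was called by limma in any comparison. The selenocysteine elongation factor *Eefsec* passed lower (-0.43 ± 0.13 and -0.69 ± 0.13), and the diphthamide gene *Dph6* passed higher (0.32 ± 0.10 and 0.33 ± 0.10). At an unadjusted p under 0.05 this last list had 1 gene higher and 2 lower in each comparison with P0, where 32% and 31.6% of all genes were higher and lower in P1 and 33.8% and 33.9% in P2.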

How the data were processed

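RNA of P0, P1 and P2 mDMCs was sequenced by Illumina sequencing in duplicate. The authors mapped reads to mm10 (Ensembl v73) with bowtie 1.0.1 and RSEM (1.2.12 in the methods, 1.1.21 in the submitters' processing notes), normalized them with EDASeq 1.11.0 and tested with DESeq2 1.12.0. The deposited score is the authors' normalized value, given as a mean and an error per passage. It is not a count, so the count test was replaced by limma. Mean ± error × √2 gave whole library values for all 11386 genes in each passage (tolerance 1e-06). Values were scaled to 1000000 per passage and fitted as log2(value + 1) over all 6 libraries with lmFit and eBayes with a trend (limma 3.58.1, R 4.3.3). The fit was tested on simulated data.

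Named genes are those called in any comparison, the largest changes and the highest P0 mean of each role group, paralogue pairs, and up to 4 called genes per pathway list; further members are named to account for the 89, of which 1 gene and the synthetase pair it belongs to are not reported here, although counts and medians over groups include the gene, and list genes outside this rule, *Atf4* among them, were named after their values were seen. The members and lists were chosen with earlier results of these data known. Promoter sequences are RefSeq's (GRCm38.p6). Alternatives covered the pseudocount, a filter, the scaling, the libraries in the fit, the variance trend, the fold minimum and leaving out values.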

Additional observations from a re-analysis of the deposited data

How the results depend on the processing

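No log2 fold change of the 12 called genes changed direction under any alternative run: of 286 values against P0, 266 kept their side of the threshold, 17 lost the call and 3 gained one. The filter, the fold minimum, the variance trend and the libraries in the fit cannot alter a log2 fold change. Only the pseudocount, the scaling and leaving out values could have reversed its direction. Leaving out a value cannot do so where duplicates are equal, as for *Eif4g2* in P2 against P0. With a pseudocount of 10 scaled units 5 of the 89 genes were called higher in P1 against P0. With a 1.5-fold minimum 16 were called higher and 11 lower in P1, and 17 higher and 9 lower in P2. In P2 against P1, with genes under a mean of 10 scaled units left out, 1 gene passed lower at any size, *Eif4g2*. Since the tables do not show which value is which replicate, the lower or the higher value of every gene was left out of a passage in turn. P1 then had 6 to 9 of the 89 genes called higher and 0 to 1 lower, and 15 to 29 higher and 8 to 18 lower at any size. P2 had 9 to 10 called higher and 1 to 2 lower, and 17 to 26 higher and 10 to 19 lower at any size. No paired analysis was possible because the values carry no replicate number. The depth per library is unknown, so no counting error can be given.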
